A study of Mus musculus with 6 samples.

Results

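The enzymes of mitochondrial fatty acid oxidation, the pyruvate dehydrogenase complex and the tricarboxylic acid (TCA) cycle were followed in mouse primary myoblasts exposed to transforming growth factor beta (TGFb), together with the PGC1, ERR and PPAR regulators of these enzymes. The set holds 37 genes, found on the arrays by their gene names, among 21960 genes tested. It covers 32 enzymes or their subunits and 5 regulators. All 37 were well above background on all 6 arrays, so no member was lost to the filter on dim probes.

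The arrays compared TGFb-treated myoblasts (3 arrays) with untreated myoblasts (3 arrays), in both groups sorted by flow cytometry from skeletal muscle of male C57BL/6 mice aged 3 months and cultured in medium with fetal bovine serum, with treatment or no treatment lasting 4 days. The labels give neither the TGFb dose and isoform nor the surface markers of the sort, and they call the replicates independent experiments. RNA was hybridised to 1-colour Agilent arrays, whose number limits the precision of every value here. The names of the scanner files carry the same number for untreated replicates 1 and 2. Were they from the same culture, there would be 2 rather than 3 independent untreated samples, and p-values would come out too small.

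Fatty acids enter mitochondria as carnitine esters, through the carnitine palmitoyltransferases, and are then shortened in repeated cycles of dehydrogenation, hydration, a further dehydrogenation and thiolytic cleavage. Each cycle yields acetyl-CoA, which also arises from pyruvate through the pyruvate dehydrogenase complex and is burned in the TCA cycle. In muscle the genes of these enzymes are under the control of the PPAR and estrogen-related receptors with their PGC1 coactivators, and oxidative capacity increases as myoblasts differentiate into fibres.

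Scanning took place on 2 days, unequally divided between the groups. Day 1 held 1 TGFb array (replicate 1) beside untreated replicates 1 and 2, and day 2 held the remaining TGFb arrays beside untreated replicate 3. The first principal component over all tested genes (72.4% of the variance) separated the scan days and the second (16.3%) separated the groups. The model therefore included scan day, and values from the model without it stand beside the calls. On each array, between 52.0% and 56.7% of probes were well above background. Pax7 and Myod1, transcription factors of the myogenic lineage, gave clear signal on every array. Of 6 myoblast markers 5 were well above background on at least 3 arrays, and Myf5 was not. Of 5 adipocyte markers 0 were well above background on at least 3 arrays, and 4 of 5 leukocyte markers also fell short of this. Of 6 fibroblast markers 4 reached it (Pdgfra, Ly6a, Dcn and Col3a1), while Lum and Dpt did not. Of 4 endothelial markers 3 reached it.

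Among the 37 genes, 5 fell after TGFb and 0 rose (limma model that includes scan day, adjusted p under 0.05 over all genes). The 5 were Cpt1b, the muscle form of carnitine palmitoyltransferase 1, Acads, the short-chain acyl-CoA dehydrogenase, the fatty acid receptor Ppara, and the coactivators Ppargc1a (PGC-1alpha) and Ppargc1b (PGC-1beta). The background over all tested genes was 5.54% fallen and 4.6% risen. Without adjustment, 22 members had a lower value and 1 a higher value at p under 0.05 in limma, against shares of 13.8% and 13.4% over all tested genes. The log2 fold changes of the 37 ran between -2.74 and 0.47 with a median of -0.60, against a median of 0.04 over all tested genes. A value below 0 was found in 35 of the 37, against 46.2% of all tested genes, and 33 of the 37 lay below 0 within both scan days, against 31.7%. The list was chosen with earlier results of these arrays known, and its members are not independent of each other, so these counts describe the list and carry no test. In such bulk RNA, fewer cells of a type and less RNA per cell cannot be told apart.

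The scan-day difference was larger than the treatment difference in 24 of the 37 members, with a median size of 0.93 against 0.60 on the log2 scale. Over all tested genes it was larger in 15741 of 21960, with median sizes of 0.78 against 0.34. Its direction varied between members, from -1.61 for Hadha to 1.80 for Mdh1. With group as the only term, 1 member fell (Cpt1b), against a background of 0.701%, and 0 rose, against 0.697%. With slide as a block 2 fell (Cpt1b and Ppara), against 1.91%. Only slides 1 and 3 held both groups. The slide fit thus rested on TGFb replicate 1 beside untreated replicate 2 and TGFb replicate 2 beside untreated replicate 3. The median of the members was -0.40 with group as the only term and -0.62 with slide as a block. The median within scan day 1 was -0.40 and within scan day 2 it was -0.66.

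**Figure D1:**
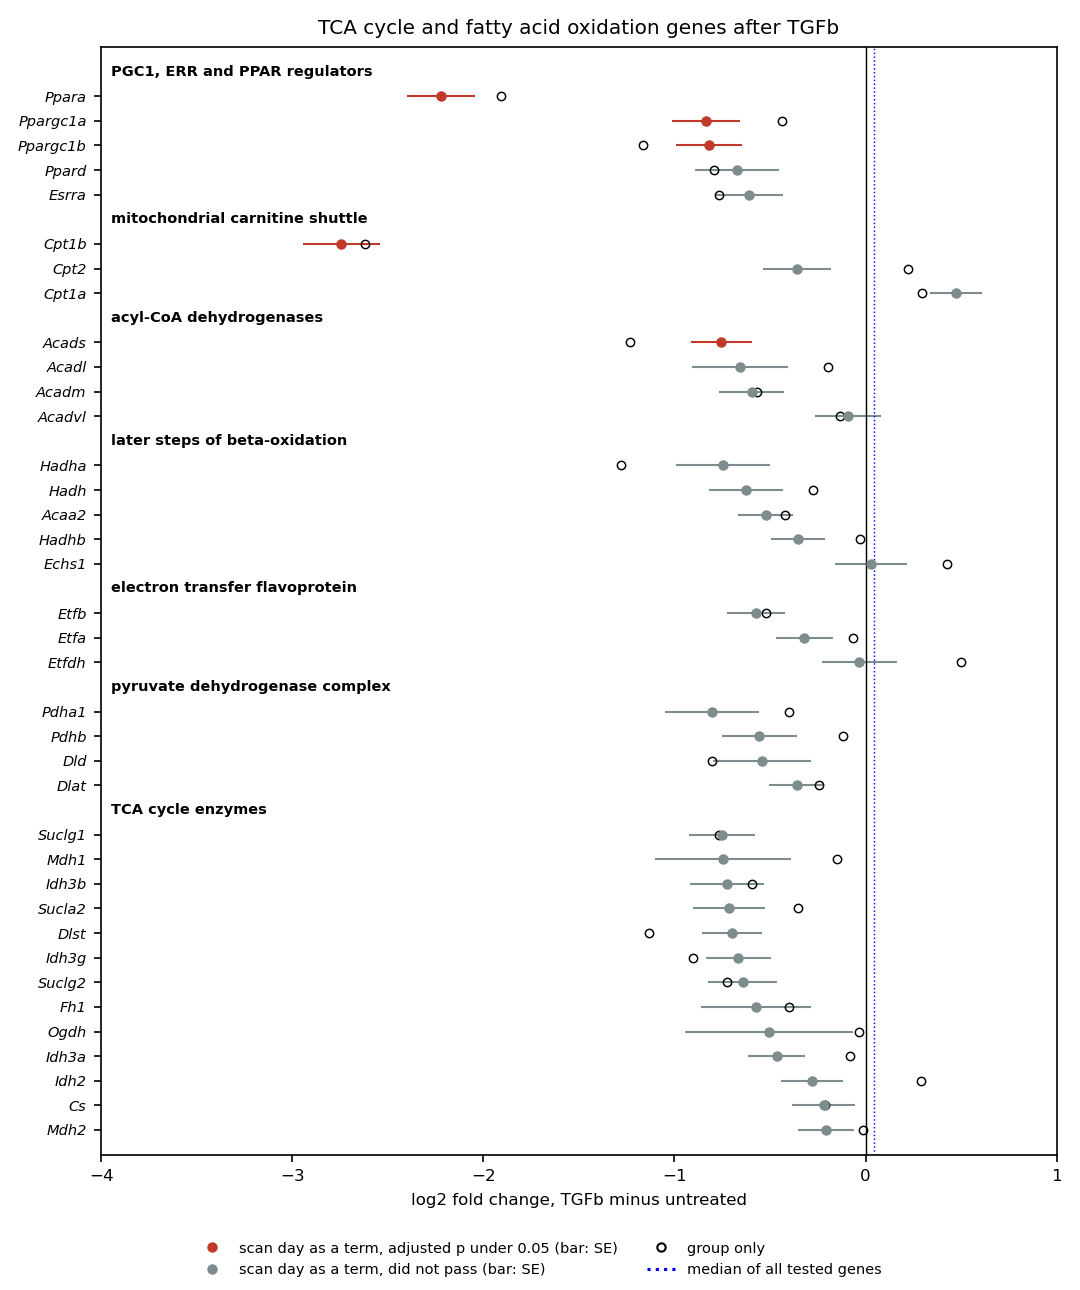
Log2 fold change (horizontal axis, TGFb minus untreated) of the 37 genes, grouped by role. Filled points with SE bars come from the model that includes scan day (red: adjusted p under 0.05), open points from the fit with group only, and the dotted line is the median of all tested genes at 0.04. Filled points lie below 0 for 35 of 37 genes, and Cpt1b and Ppara stand far to the left of the others.

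Of the 5 regulators 3 fell (Ppara, Ppargc1a and Ppargc1b), against 5.54% of all tested genes. All 5 had values below 0 within both scan days, against 31.7% of all tested genes. Ppara encodes the nuclear receptor that is activated by fatty acids and drives fatty acid oxidation genes. Its log2 level, relative to the 75th percentile of each array, was -3.12, -2.50 and -2.10 on the TGFb arrays, against -0.94, -1.08 and 0.03 on the untreated arrays. All TGFb arrays lay below all untreated arrays. Ppara fell by 2.22 ± 0.18 on the log2 scale (SE, n = 3 per group, limma adjusted p = 0.00334), a 4.66-fold lower level. The difference was -2.11 within scan day 1 and -2.33 within scan day 2.

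The call for Ppara was lost with group as the only term (-1.91 ± 0.44, adjusted p = 0.137) and without untreated replicate 3 (-2.11, adjusted p = 0.0556). The gene has 3 probes on the array, all placed on chromosome 15 of mm9. The brightest lies at 85632110 to 85632169. A second probe, at 85637193 to 85637252, was well above background on 3 arrays, with levels of -5.36, -7.21 and -7.14 on the TGFb arrays against -3.15, -3.12 and -3.99 on the untreated arrays. The third, at 85632534 to 85632593, was well above background on all 6 arrays. It read -1.55, -2.085 and -1.87 on the TGFb arrays against -1.268, -1.269 and -2.685 on the untreated arrays. This probe went the other way and did not pass (0.21 ± 0.26, limma adjusted p over all probes = 0.657). The fall of Ppara was thus not seen in every probe with clear signal.

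Ppargc1a encodes PGC-1alpha, the coactivator best known for mitochondrial biogenesis in muscle. Its levels were -0.84, 0.29 and 0.56 on the TGFb arrays, against -0.09, 0.24 and 1.18 on the untreated arrays. The groups overlapped across days, while within each day the TGFb arrays were the lower ones. Ppargc1a fell by 0.83 ± 0.18 on the log2 scale (adjusted p = 0.0463), and the difference was -0.91 in the day 1 arrays and -0.75 in those of day 2. A dimmer probe of the same gene, well above background on 4 arrays, read -4.35, -5.18 and -5.81 on the TGFb arrays against -2.99, -2.81 and -4.04 on the untreated arrays.

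Ppargc1b encodes the related coactivator PGC-1beta. Its levels were -0.93, -2.25 and -2.04 on the TGFb arrays, against -0.42, -0.18 and -1.14 on the untreated arrays. Again the groups overlapped across days and were apart within each day. It fell by 0.82 ± 0.17 (adjusted p = 0.0467), with -0.64 on day 1 and -1.003 on day 2. Both coactivator calls lay close to the threshold and were lost with group as the only term (adjusted p = 0.783 for Ppargc1a and 0.421 for Ppargc1b). With slide as a block the adjusted p was 0.0939 for Ppargc1a and 0.114 for Ppargc1b. On leaving out 1 array, Ppargc1a passed without TGFb replicate 3 (adjusted p = 0.0348) but not when any other was left out (highest adjusted p = 0.209), and Ppargc1b passed in none of the 6 cases (0.0519 to 0.288).

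Esrra, the estrogen-related receptor alpha that PGC-1alpha coactivates on mitochondrial genes, had levels of 3.31, 2.48 and 2.72 on the TGFb arrays, against 3.72, 3.64 and 3.44 on the untreated arrays. Ppard, the PPAR that predominates in skeletal muscle, had 1.48, 1.20 and 0.63 on the TGFb arrays, against 1.92, 1.99 and 1.80 on the untreated arrays. In both genes all TGFb arrays were below all untreated arrays. Neither passed the test, with log2 fold changes of -0.61 ± 0.18 for Esrra (adjusted p = 0.1) and -0.67 ± 0.22 for Ppard (adjusted p = 0.125).

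**Figure D2:**
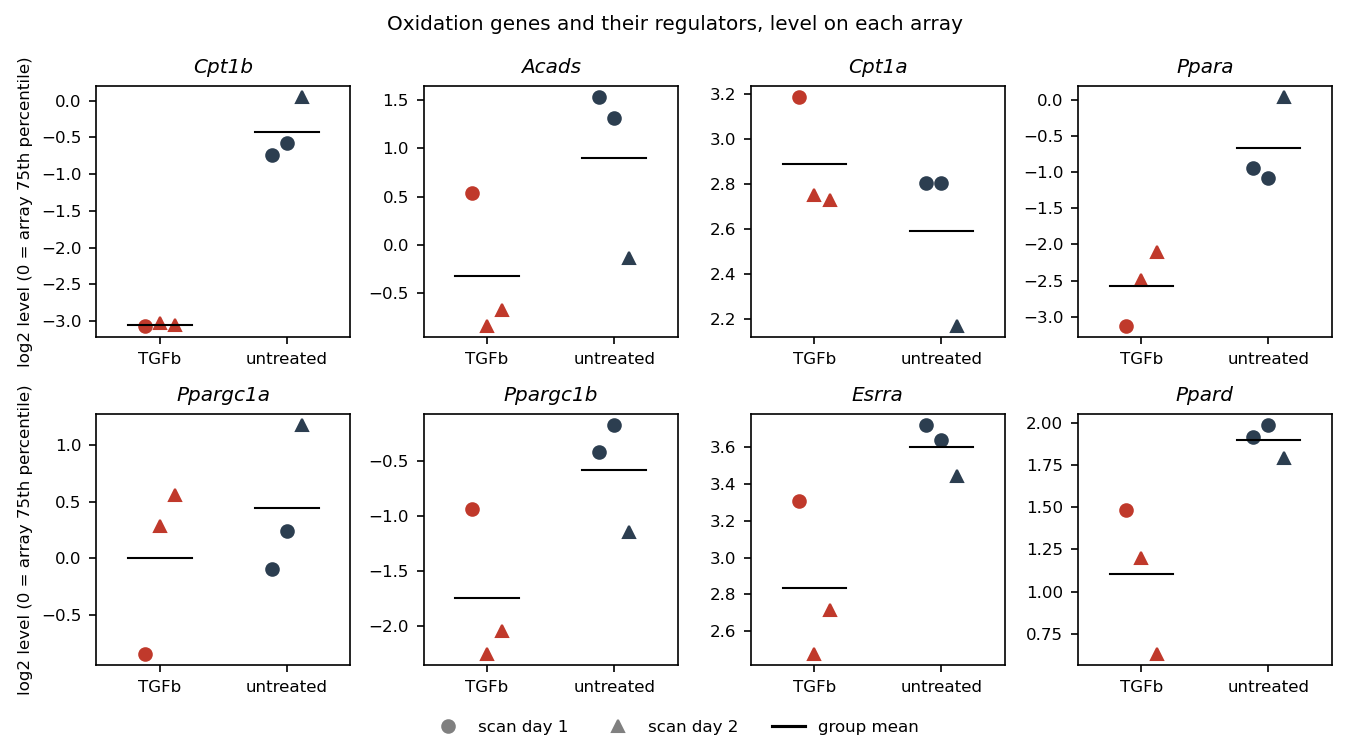
Log2 level on each array (vertical axis, 0 is the 75th percentile of the array) for 3 enzyme genes and the 5 regulators, TGFb arrays left and untreated arrays right. Circles are scan day 1, triangles scan day 2, and the line is the mean of each group. Cpt1b shows TGFb arrays near -3.05 and untreated arrays between -0.75 and 0.04, while in Ppargc1a the groups are apart only within a scan day.

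RefSeq promoter windows (GRCm38.p6, 250 bases before to 50 after the start) were held for 33 of the 37 members, among them 3 of those that fell. The bases before the start of these are printed, since they are the sequences nearest to the transcripts that fell. Capitals mark a match to the motif of the nuclear respiratory factor NRF1, a palindrome of GCGCA joined to TGCGC, and the other motifs searched had no match there.
Ppara, chr15:85735526-85735775, plus strand: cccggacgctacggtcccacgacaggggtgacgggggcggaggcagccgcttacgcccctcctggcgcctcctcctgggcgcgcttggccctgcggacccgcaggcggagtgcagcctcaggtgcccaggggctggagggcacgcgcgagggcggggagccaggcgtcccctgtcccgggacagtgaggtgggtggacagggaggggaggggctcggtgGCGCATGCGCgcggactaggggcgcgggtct
Ppargc1a, chr5:51567726-51567975, minus strand: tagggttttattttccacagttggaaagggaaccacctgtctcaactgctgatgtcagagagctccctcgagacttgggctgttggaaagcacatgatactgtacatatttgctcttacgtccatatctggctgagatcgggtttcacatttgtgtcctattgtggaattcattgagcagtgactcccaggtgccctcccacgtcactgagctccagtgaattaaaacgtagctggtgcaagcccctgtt
Acads, chr5:115119347-115119596, minus strand: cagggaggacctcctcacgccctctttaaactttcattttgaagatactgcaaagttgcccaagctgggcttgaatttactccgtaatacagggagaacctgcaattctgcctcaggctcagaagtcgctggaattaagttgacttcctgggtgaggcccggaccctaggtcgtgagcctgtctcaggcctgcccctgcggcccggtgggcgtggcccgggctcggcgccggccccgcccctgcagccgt

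Both strands of 38 member windows were searched for 3 motifs. The element of estrogen-related receptors, TNAAGGTCA, was in 0 of the 38 and in 1.28% of all 32851 windows. The direct repeat bound by PPAR, 2 copies of AGGTCA with 1 base of any kind between, was in 0 of the 38 and in 0.0396% of all windows, and the first motif shares its last 6 letters with each repeat. The NRF1 motif was in 2 of the 38, those of Ppara and Etfdh, and in 0.971% of all windows. These matches are descriptions of the letters in short windows.

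Entry of long-chain fatty acids into mitochondria is catalysed by carnitine palmitoyltransferase 1, with a muscle form (Cpt1b) and a widely expressed form (Cpt1a), and by carnitine palmitoyltransferase 2 (Cpt2) on the inner membrane. Cpt1b had levels of -3.06, -3.03 and -3.06 on the TGFb arrays, against -0.75, -0.58 and 0.04 on the untreated arrays. The TGFb arrays were nearly alike (SD 0.02) and all far below the untreated arrays (SD 0.41). Cpt1b fell by 2.74 ± 0.20 on the log2 scale (adjusted p = 0.0029). The difference was -2.40 within day 1 and -3.08 within day 2.

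The fall of Cpt1b was also called with group as the only term (-2.62 ± 0.30, adjusted p = 0.0207) and when each array was left out in turn (adjusted p between 0.00775 and 0.033). The probe lies at 89246836 to 89246895 on chromosome 15 of mm9. A second Cpt1b probe, well above background on 4 arrays, gave -3.72, -7.32 and -6.17 on the TGFb arrays and -1.46, -1.42 and -2.99 on the untreated arrays. In RefSeq a long noncoding RNA gene, Gm44502, spans both Cpt1b and its neighbour Chkb, and the probe's signal was not separated from that transcript here.

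Cpt1a had levels of 3.18, 2.75 and 2.73 on the TGFb arrays, against 2.80, 2.81 and 2.17 on the untreated arrays. Its log2 fold change of 0.47 ± 0.14 was the highest of the 37 and did not pass (adjusted p = 0.0975), with differences of 0.38 on day 1 and 0.57 on day 2. It was the single member above 0 on both days. Cpt2 was at -0.36 ± 0.18 (adjusted p = 0.269).

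The acyl-CoA dehydrogenases carry out the first step of each cycle for chains of different length. Acads, the short-chain enzyme, had levels of 0.54, -0.84 and -0.68 on the TGFb arrays, against 1.53, 1.32 and -0.14 on the untreated arrays. The groups overlapped across days and were apart within each day. Acads fell by 0.76 ± 0.16 (adjusted p = 0.0457), and the arrays of day 1 differed by -0.89 and those of day 2 by -0.62. This call too was near the threshold and was lost with group as the only term (-1.23 ± 0.60, adjusted p = 0.528), with slide as a block (adjusted p = 0.142) and when any single array except TGFb replicate 3 was left out (highest adjusted p = 0.188).

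The medium-chain enzyme Acadm had levels of 3.39, 3.47 and 3.15 on the TGFb arrays, against 3.83, 3.82 and 4.07 on the untreated arrays. The groups did not overlap, and the log2 fold change of -0.60 ± 0.17 did not pass (adjusted p = 0.0964). Acadl, the long-chain enzyme, had -0.66 ± 0.25 (adjusted p = 0.171). Acadvl, which acts on very long chains, had -0.09 ± 0.17 (adjusted p = 0.781) and differed in sign between the scan days.

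Of the 5 genes for the later steps of the cycle, 0 passed, with log2 fold changes from -0.75 to 0.03, and 3 were lower in limma at an unadjusted p under 0.05 (13.8% of all tested genes). The trifunctional protein, which handles long chains at the inner membrane, is built from the products of Hadha (-0.75 ± 0.25) and Hadhb (-0.35 ± 0.14). Hadh, the dehydrogenase for shorter chains, had -0.63 ± 0.19 (adjusted p = 0.111). The enoyl-CoA hydratase gene Echs1 had 0.03 ± 0.19 (adjusted p = 0.938), and its sign changed from day 1 (0.20) to day 2 (-0.14). The thiolase gene Acaa2 had levels of 4.97, 5.12 and 5.20 on the TGFb arrays, against 5.37, 5.37 and 5.81 on the untreated arrays. These did not overlap, and its log2 fold change was -0.52 ± 0.14 (adjusted p = 0.0854).

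Electrons from the acyl-CoA dehydrogenases pass to the electron transfer flavoprotein (Etfa and Etfb) and on to ubiquinone through its dehydrogenase (Etfdh). Etfb had levels of 5.29, 5.24 and 5.47 on the TGFb arrays, against 5.79, 5.76 and 6.01 on the untreated arrays. Its groups did not overlap and its log2 fold change was -0.57 ± 0.15 (adjusted p = 0.0767). Etfa had -0.32 ± 0.15 and Etfdh had -0.03 ± 0.20, neither of which passed (adjusted p = 0.245 for Etfa and 0.935 for Etfdh).

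The pyruvate dehydrogenase complex converts pyruvate to acetyl-CoA with its E1 subunits (Pdha1 and Pdhb), E2 (Dlat) and E3 (Dld). All 4 genes were below 0 within both scan days, against 31.7% of all tested genes, and 0 of the 4 passed (adjusted p between 0.108 and 0.245). At an unadjusted p under 0.05 in limma 2 were lower, a level that 13.8% of all tested genes reached in that direction. The log2 fold changes of the 4 were -0.80 ± 0.24 for Pdha1, -0.56 ± 0.20 for Pdhb, -0.54 ± 0.25 for Dld and -0.36 ± 0.14 for Dlat. The 3 Pdhb probes gave values between -0.69 and -0.45.

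All 13 genes for TCA cycle enzymes were below 0 within both scan days, against 31.7% of all tested genes. Their log2 fold changes lay between -0.75 and -0.21 with a median of -0.64, and 0 passed the test (adjusted p between 0.0527 and 0.513). At an unadjusted p under 0.05 in limma, 7 of the 13 were lower (13.8% of all tested genes) and 0 were higher (13.4%). Suclg1, the subunit shared by both forms of succinyl-CoA ligase, had levels of 4.28, 4.17 and 3.91 on the TGFb arrays, against 4.82, 4.84 and 4.99 on the untreated arrays. Suclg2, the GTP-forming subunit, had 0.65, 0.55 and 0.10 on the TGFb arrays, against 1.19, 1.25 and 1.05 on the untreated arrays. Neither overlapped between groups, and the log2 fold changes were -0.75 ± 0.17 for Suclg1 (adjusted p = 0.0547) and -0.64 ± 0.18 for Suclg2 (adjusted p = 0.0922). The ATP-forming subunit gene Sucla2 had -0.71 ± 0.19 (adjusted p = 0.0786).

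The NAD-linked isocitrate dehydrogenase, a regulated step of the cycle, is formed from Idh3a, Idh3b and Idh3g. Idh3b had levels of 3.72, 4.04 and 4.51 on the TGFb arrays, against 4.61, 4.61 and 4.83 on the untreated arrays. The groups did not overlap and the log2 fold change was -0.72 ± 0.19 (adjusted p = 0.0809). Idh3g had -0.67 ± 0.17 (adjusted p = 0.0723) and Idh3a had -0.47 ± 0.15 (adjusted p = 0.121). The NADP-linked enzyme gene Idh2 had -0.28 ± 0.16 (adjusted p = 0.336).

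The oxoglutarate dehydrogenase complex had a log2 fold change of -0.70 ± 0.16 for its E2 subunit gene Dlst (adjusted p = 0.0527) and of -0.51 ± 0.44 for its E1 subunit gene Ogdh (adjusted p = 0.513), whose 3 probes ran between -0.51 and -0.02. Citrate synthase (Cs), which opens the cycle, had -0.22 ± 0.16. Fumarase (Fh1) had -0.57 ± 0.29, and the malate dehydrogenases had -0.75 ± 0.36 for the cytosolic form (Mdh1) and -0.21 ± 0.15 for the mitochondrial form (Mdh2). None of these 4 passed (adjusted p between 0.252 and 0.443), and 0 of them passed with group as the only term.

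Over the whole set, 10 of the 37 had all TGFb arrays below all untreated arrays and 0 had them above. Across all tested genes those shares were 9.49% and 8.5%. The 10 were Cpt1b, Ppara, Acadm, Acaa2, Etfb, Idh3b, Suclg1, Suclg2, Esrra and Ppard.

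**Figure D3:**
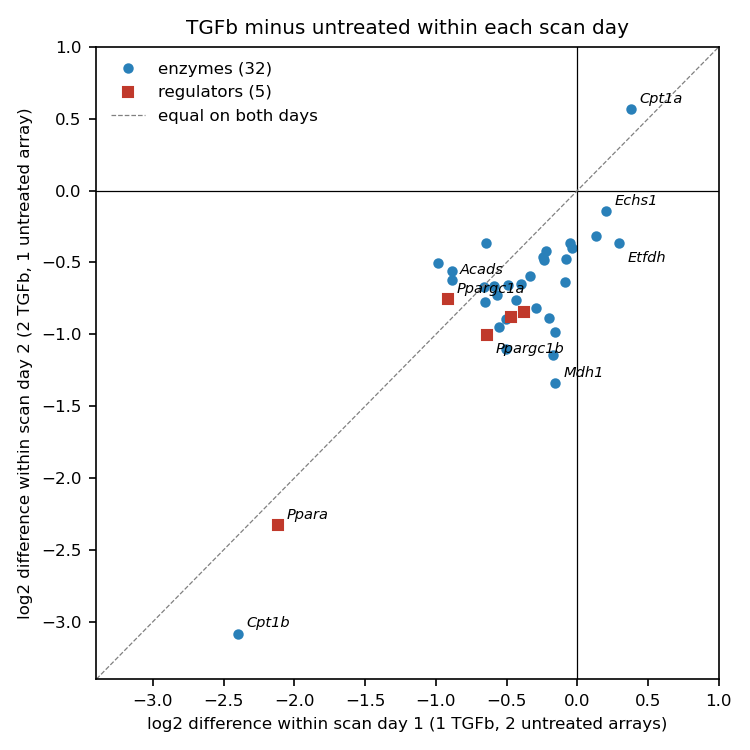
Log2 difference between TGFb and untreated arrays within scan day 1 (horizontal axis) and within scan day 2 (vertical axis) for the 37 genes. The 2 days share no array. In the lower left quadrant lie 33 genes, with Cpt1b and Ppara farthest from 0, and Cpt1a is the one gene above 0 on both days.

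Other genes of the same pathways were taken from lists outside the 37. Among 13 further TCA cycle and anaplerotic genes, 1 fell, 0 rose and 12 did not pass. The shares over all tested genes were 5.54% fallen and 4.6% risen. Pcx, pyruvate carboxylase, which refills the cycle with oxaloacetate, had levels of 1.57, 2.90 and 3.13 on the TGFb arrays, against 3.66, 3.47 and 5.22 on the untreated arrays, and fell by 2.10 ± 0.16 (adjusted p = 0.00308). The groups did not overlap. Pcx did not pass with group as the only term (adjusted p = 0.425) or without untreated replicate 3 (adjusted p = 0.0517). Sdhd, a membrane subunit of succinate dehydrogenase, had a log2 fold change of -0.93 ± 0.31 and did not pass (adjusted p = 0.134). In the cytosol, malic enzyme Me1 and ATP-citrate lyase Acly, which feed lipid synthesis, had log2 fold changes of 0.62 ± 0.17 and 0.55 ± 0.15 and did not pass (adjusted p = 0.0884 and 0.089).

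Of 10 genes that control the pyruvate dehydrogenase complex or bring pyruvate to it, 1 fell, 0 rose and 9 did not pass. Over all tested genes 5.54% fell and 4.6% rose. All 10 were below 0 within both days, against 31.7% of all tested genes. Pdk2, a kinase that inactivates the complex, fell by 1.09 ± 0.19 (adjusted p = 0.0254, and 0.196 with group as the only term). This call held without TGFb replicate 3 and was lost without any other array (highest adjusted p = 0.135). Pdk4, the kinase induced by fasting in muscle, had -0.72 ± 0.24 (adjusted p = 0.131). The pyruvate carrier subunit Mpc1 had -0.93 ± 0.22 (adjusted p = 0.0582), the kinase Pdk1 had -0.68 ± 0.18 and the phosphatase Pdp1 had -0.59 ± 0.16, and these 3 did not pass.

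Of 24 tested genes among other fatty acid oxidation enzymes, some of them peroxisomal or acting on branched chains, 2 fell, 0 rose and 22 did not pass. The background over all tested genes was 5.54% fallen and 4.6% risen. In this list 12 were below 0 and 12 above, with a median of -0.01. Of all tested genes 46.2% were below 0, and their median was 0.04. Acacb, which makes the malonyl-CoA that inhibits carnitine palmitoyltransferase 1, fell by 0.89 ± 0.18 (adjusted p = 0.0398). Ivd, a dehydrogenase of leucine breakdown, fell by 0.66 ± 0.14 (adjusted p = 0.0456). Slc25a20, the carnitine-acylcarnitine carrier, gave a value of 0.16 ± 0.23 (adjusted p = 0.701), and the peroxisomal Ehhadh had 0.45 ± 0.16 (adjusted p = 0.139). The carnitine acetyltransferase Crat was well above background on 1 of the 3 TGFb arrays and had an adjusted p of 0.0508. Neither fall was called with group as the only term (adjusted p = 0.426 for Acacb and 0.419 for Ivd) or without any single array except TGFb replicate 3 (highest adjusted p = 0.26 for Acacb and 0.205 for Ivd).

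Among 18 tested other regulators of mitochondrial oxidation, 4 fell, 0 rose and 14 did not pass. Of all tested genes 5.54% fell and 4.6% rose. Esrrg, the estrogen-related receptor gamma of oxidative muscle, had levels of -3.06, -1.89 and -1.77 on the TGFb arrays, against -0.92, -0.96 and 0.02 on the untreated arrays. It fell by 1.98 ± 0.15 (adjusted p = 0.00294, and 0.242 with group as the only term). Prkaa2, the catalytic alpha 2 subunit of AMP-activated protein kinase that predominates in muscle, had -0.32, -0.43 and -0.36 on the TGFb arrays, against 1.49, 1.58 and 1.83 on the untreated arrays. It fell by 2.04 ± 0.16 (adjusted p = 0.0031) and passed with group as the only term too (adjusted p = 0.0236).

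Prkag3, the muscle-specific gamma 3 subunit of the same kinase, fell by 1.68 ± 0.19 (adjusted p = 0.00784, and 0.0514 with group as the only term). Pparg, the receptor best known from fat cells, fell by 0.88 ± 0.15 (adjusted p = 0.0269, and 0.194 with group as the only term). Prkag3 lost its call without TGFb replicate 1 or untreated replicate 3 (highest adjusted p = 0.0596), Pparg without TGFb replicate 1 or any untreated array (highest adjusted p = 0.184). In each of the 4 regulators that fell, all TGFb arrays lay below all untreated arrays, as in 9.49% of all tested genes. The 4 were singled out by their fall on the same arrays, so this adds no separate support.

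**Figure D4:**
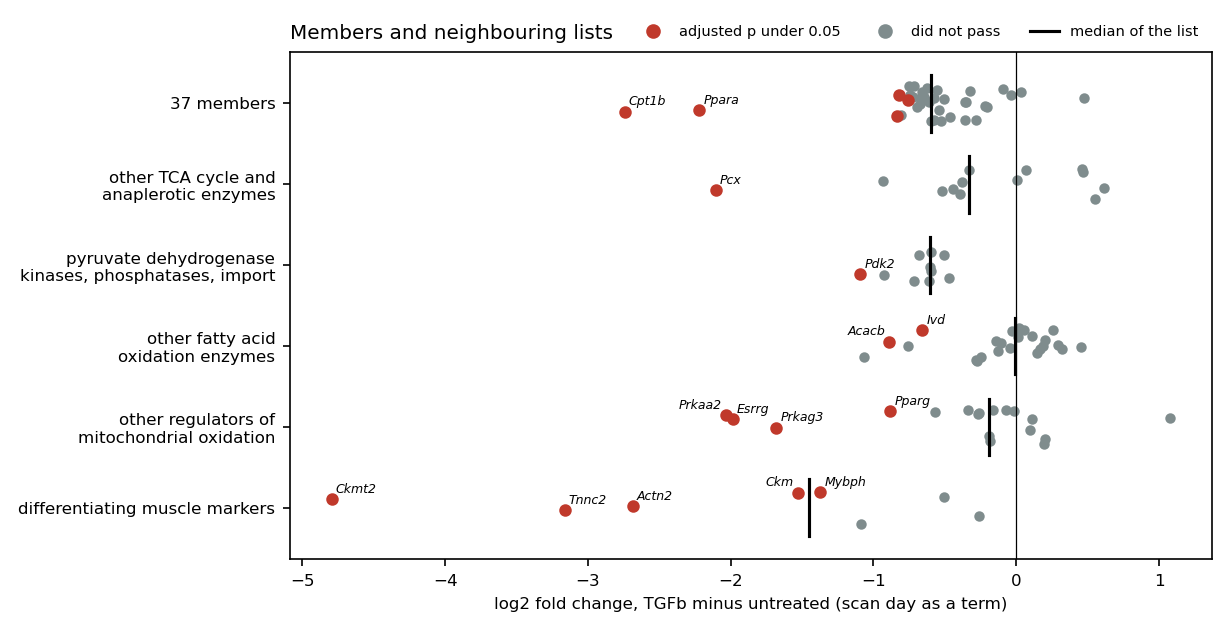
Log2 fold change (horizontal axis, TGFb minus untreated, model with scan day) of single genes in the 37-gene set, in 4 neighbouring lists and among markers of differentiating muscle. Red points passed at an adjusted p under 0.05, and black bars are the medians of the lists. The median is -0.60 for the 37 genes, -0.01 for the other fatty acid oxidation enzymes and -1.45 for the muscle markers.

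Markers of differentiating muscle had log2 fold changes below 0 too, though Myh3 changed sign between scan days. They numbered 8, of which 5 fell, 0 rose and 3 missed the threshold, against 5.54% fallen and 4.6% risen over all tested genes. Their median log2 fold change was -1.45. Their summed level, in multiples of the 75th percentile of each array, was 487 to 894 on the TGFb arrays and 1026 to 1352 on the untreated arrays. Ckmt2, the creatine kinase of muscle mitochondria, fell by 4.79 ± 0.18 (adjusted p = 0.00149), and Tnnc2, fast troponin C, fell by 3.16 ± 0.17 (adjusted p = 0.00188). The others that fell were Actn2, Ckm and Mybph. With group as the only term, Ckmt2, Tnnc2 and Actn2 passed (adjusted p = 0.00917, 0.0149 and 0.025), while Ckm and Mybph did not (adjusted p = 0.056 and 0.148). Ckm lost its call without TGFb replicate 1 or untreated replicate 3 (highest adjusted p = 0.0938), and Mybph without TGFb replicate 1 or any untreated array (highest adjusted p = 0.126). Myog, a factor of early differentiation, gave -0.51 ± 0.17 on the log2 scale (adjusted p = 0.128), and Mymk gave -1.09 ± 0.24 (adjusted p = 0.0527). Myh3 gave -0.26 ± 0.205 (adjusted p = 0.463), with -0.62 on day 1 and 0.10 on day 2, and its groups overlapped. The part of these markers in the values of the oxidation genes was not tested.

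Among 5 tested myoblast markers, 1 fell (Des, by 1.28 ± 0.16, adjusted p = 0.0101), 0 rose and 4 did not pass. Of all tested genes 5.54% fell and 4.6% rose. All 5 had values below 0 (46.2% of all tested genes), with a median of -0.53. At an unadjusted p under 0.05 in limma 4 were lower, against 13.8% of all tested genes. The 6 myoblast markers summed to 166 to 315 on the TGFb arrays and 251.5 to 445 on the untreated arrays. Pax7 had a log2 fold change of -0.02 ± 0.14 and Myod1 one of -0.53 ± 0.15. The 6 fibroblast markers summed to 46.4 to 102 on the TGFb arrays and 38.8 to 90.8 on the untreated arrays. Most of this sum was Col3a1, which had a log2 fold change of -0.03 ± 0.27 and did not pass (adjusted p = 0.964). Dcn, well above background on 2 of 3 TGFb arrays, was the one fibroblast marker that passed (adjusted p = 0.0164), and it was lower on the TGFb arrays. With group as the only term neither Des nor Dcn passed (adjusted p = 0.141 and 0.125). Des lost its call without TGFb replicate 1 or any untreated array (highest adjusted p = 0.0866), and Dcn without any array except TGFb replicate 3 (highest adjusted p = 0.0842). Leukocyte markers summed to 0.656 to 1.14 on the TGFb arrays and 0.69 to 1.18 on the untreated arrays. The adipocyte markers summed to 0.051 to 0.105 on the TGFb arrays and 0.0328 to 0.0554 on the untreated arrays, and Adipoq, Plin1, Cidec and Lep were well above background on 0 arrays. Endothelial markers summed to 0.422 to 2.94 on the TGFb arrays and 0.324 to 3.17 on the untreated arrays. Most of this sum was Kdr, whose scan-day difference was -3.20 on the log2 scale. Of the 3 endothelial markers tested, 0 passed in limma, also at an unadjusted p under 0.05.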

How the data were processed

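Gene expression was measured with 1 array per sample. The deposited scanner files hold spot intensity from Agilent Feature Extraction 10.7.3.1, which subtracted background and removed spatial trends, per the file headers. The authors also deposited a table of normalized log2 values (column medians 6.99 to 7.00). The sources used here do not give its normalization. It served as an alternative.

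Control spots and flagged outlier spots (176 to 365 per array) were removed. After log2 conversion of the processed intensity, the 75th percentile of each array was subtracted and spots of a probe were averaged. Probes well above background on at least 3 arrays were kept, and each gene was represented by its brightest probe. Members were matched by the arrays' gene names. Other names were updated through RefSeq accessions (GRCm38.p6), which changed 2839 of 55681 probes. Probe coordinates are those of the arrays (mm9).

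The comparison used limma 3.58.1 under R 4.3.3 (group and scan day as terms, TGFb minus untreated), with Benjamini-Hochberg adjustment over all 21960 genes. Scan day was included because its split between groups is unequal. The fit was also run on simulated data with independent noise and the scan-day differences estimated from these arrays. The simulation held no slide effect and no shared culture, so it could not show what either would do. Members, lists and this fit were chosen with earlier results of these data known. Named were all members and, from each further list, up to 4 genes with the smallest adjusted p, plus Pdk4, Pparg, Esrrg and Slc25a20. Slide as a block, other background corrections and filters, and leaving out each array were tried as alternatives. 1 gene of a further list is not reported here.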

Additional observations from a re-analysis of the deposited data

How the results depend on the processing

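The count of 5 members that fell depended on the fit. It was 1 with group as the only term, 2 with slide as a block, 2 with no filter on dim probes, 12 after normexp background correction with quantile normalization, 14 with the authors' deposited table and 8 when probes had to be above background on all 6 arrays. Leaving out 1 array gave 1 to 10, namely 1 without untreated replicate 3, 10 without TGFb replicate 3 and 2 without any other array. Averaging untreated replicates 1 and 2 into 1 sample, an alternative added after the data were seen, gave 2 (Cpt1b and Ppara). Whether same-numbered arrays belong together is not known here. Their deviations from the group means correlated at 0.808, -0.717 and 0.691 for numbers 1, 2 and 3. The arrays numbered 1 shared a scan day, as did those numbered 3, while those numbered 2 did not. Scan day was not removed from these deviations, so the correlations cannot show whether the arrays were paired. With the replicate number as a block the count was 0 (median -0.40), and 0 with that block and scan day, where 0 of all 21960 genes passed in limma. At an unadjusted p under 0.05 each of these block fits had 5 members lower and 0 higher, against 1328 lower and 1627 higher over all genes with the replicate block and 1692 lower and 1921 higher with scan day added. Such fits leave 2 or fewer residual degrees of freedom. The count of risers was 0 under each of these settings. The median of members was -0.40 with group as the only term, -0.40 within scan day 1, and -0.66 to -0.40 when 1 array was left out, with the -0.40 found without untreated replicate 3. No called member changed sign under any alternative run. The members below 0 numbered 32 to 36 of 37 across the alternatives. The cause of the differences in count was not tested. Over all genes, 1011 rose and 1216 fell, against 153 and 154 with group as the only term, 370 and 420 with slide as a block, 616 and 688 with no filter, 1534 and 1833 with the deposited table, and 323 and 351 with untreated replicates 1 and 2 averaged. Normexp background correction with quantile normalization gave 1448 that rose and 1742 that fell. When probes had to be above background on all 6 arrays, 1159 rose and 1399 fell among 18361 genes. Leaving out 1 array gave 147 to 1527 that rose and 182 to 1793 that fell, lowest without untreated replicate 3. Signal over background limits the dimmest probes of Ppara, Cpt1b and Ppargc1a, which reached it on 3 or 4 arrays.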
